A study of Homo sapiens with 66 samples.

Results

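The alpha- and beta-tubulin mRNAs were followed through all 22 groups of an RNA sequencing series on multiple myeloma cells. The members were 10 of the 20167 genes in the count table, chosen by name: the 4 alpha-tubulin genes TUBA1A, TUBA1B, TUBA1C and TUBA4A, and the 6 beta-tubulin genes TUBB, TUBB2A, TUBB2B, TUBB3, TUBB4B and TUBB6. The rule itself uses no measured value, but it was written with earlier results of these data known. The series held 66 libraries, 36 of AMO1 cells, a human myeloma line, and 30 of CFZr L363 cells, a subline of the L363 myeloma line that resists the proteasome inhibitor carfilzomib (CFZ). Each group had 3 replicates of one line, treatment and time. Cells of both lines received the vehicle DMSO, NCP26, NCP22, halofuginone (HFG) or halofuginol for 6 h or 24 h, and AMO1 cells received CFZ as well. The 4 compounds other than CFZ were used at 1 µM, and CFZ was given at a nanomolar dose that the study states and the labels do not. NCP26 and NCP22 are related inhibitors of prolyl-tRNA synthetase built on a pyrazinamide scaffold. The study places NCP26 in the ATP site, as it reads earlier structural work on NCP22, and finds NCP26 the more potent with proline present. HFG binds the proline pocket of the same enzyme, and halofuginol is its analogue. Samples of 6 h were stored frozen overnight where those of 24 h were kept on ice, so time and storage cannot be told apart. The study describes its triplicates as biological in general terms, and as nothing in the labels says that these replicates came from separate cultures, the p-values measure the spread between these samples.

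Alpha- and beta-tubulin proteins pair into the dimers that polymerise into microtubules, the filaments of the mitotic spindle and of intracellular transport. Cells adjust tubulin mRNA to the amount of free dimer. The adaptor TTC5 recognises the first residues of a tubulin chain as it leaves a translating ribosome. SCAPER joins it, and the CCR4-NOT complex then shortens the poly(A) tail. This route of decay acts only on mRNA that is being translated. TUBA1B and TUBB are the common isotypes of dividing cells, TUBB4B is also widespread, and TUBB3 is best known from neurons. TUBB2A, TUBB2B and TUBB6 have narrower expression, and TUBA4A is known from platelets and motor neurons. Prolyl-tRNA synthetase charges tRNA with proline, and its inhibition slows translation at proline codons.

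The recognition step reads the start of the tubulin chain, so the first 30 coding bases of each member, taken from the GENCODE 44 canonical transcript, are shown with the first 4 codons in capitals.
TUBA1A: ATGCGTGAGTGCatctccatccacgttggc
TUBA1B: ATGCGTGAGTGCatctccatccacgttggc
TUBA1C: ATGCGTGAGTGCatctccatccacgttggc
TUBA4A: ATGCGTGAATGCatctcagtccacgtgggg
TUBB: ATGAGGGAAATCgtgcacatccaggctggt
TUBB2A: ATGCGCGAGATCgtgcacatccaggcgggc
TUBB2B: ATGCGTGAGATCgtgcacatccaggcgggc
TUBB3: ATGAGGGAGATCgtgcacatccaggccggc
TUBB4B: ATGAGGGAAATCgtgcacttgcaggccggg
TUBB6: ATGAGGGAGATCgtgcacatccaggcgggc
These 30 bases were identical in TUBA1A, TUBA1B and TUBA1C. TUBB and TUBB4B shared their first 4 codons, as did TUBB3 and TUBB6. Within each family the differences in these codons are synonymous. They encode the residues MREC in every alpha member and MREI in every beta member.

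All members had 4 exons in the canonical transcript. On GRCh38, TUBA1B lies on the minus strand at chr12:49127782-49131397 and TUBB on the plus strand at chr6:30717435-30725538. TUBA1A (chr12:49184686-49189080, minus strand) and TUBA1C (chr12:49188736-49274600, plus strand) overlap at their ends on opposite strands. TUBA4A is at chr2:219249710-219277902, TUBB4B at chr9:137241287-137243707 and TUBB6 at chr18:12307669-12344320. TUBB2A (chr6:3153497-3157544) and TUBB2B (chr6:3223324-3231730) are neighbours. Between 20 and 22 of a member's codons encode proline, which is 4.43% to 4.91% of them, against a median of 5.41% over 10571 tested genes with a coding sequence (10th percentile 3.14%, 90th percentile 9.55%). Each member held 1 pair of adjacent proline codons. GC content of the transcripts ran from 50.2% in TUBA1C to 62.2% in TUBB3, against a median of 47.9% over tested genes.

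Several members cannot be separated by every read, and the counting assigned shared reads by estimation. Of the 31-base words in the TUBA1B transcript, 65.6% also occur in another gene of the table, and the share was 58.0% for TUBA1A and 36.9% for TUBA1C. TUBB2A and TUBB2B, with coding sequences 98.2% identical, had shares of 62.9% and 52.7%. TUBB3 had the highest share, 93.3%, because a gene of the same locus, ENSG00000198211, holds 92.8% of its words. TUBB4B (16.9%), TUBB6 (6.27%), TUBB (3.02%) and TUBA4A (0.0991%) shared few. For TUBB the share rose to 33.5% when genes outside the table were included, since the pseudogene TUBBP1 holds 28.8% of its words. Levels and changes of TUBA1A, TUBA1B, TUBA1C, TUBB2A, TUBB2B and TUBB3 are therefore uncertain at the level of the single gene.

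**Figure D1:**
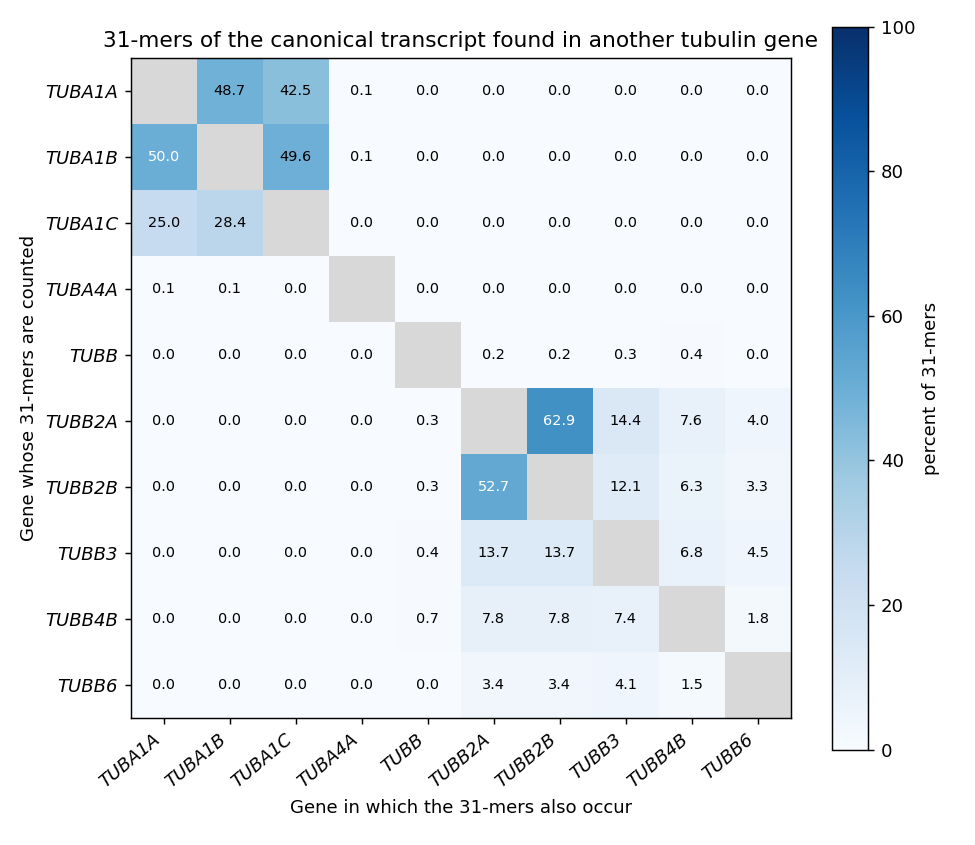
Percent of the 31-base words of each member transcript (one line of cells per member) that also occur in the transcripts of each other member (columns), from GENCODE 44. The alpha genes TUBA1A, TUBA1B and TUBA1C form one block, and TUBB2A and TUBB2B another with 62.9% and 52.7%.

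Total counts per library ran from 1666325 to 6596543 with a median of 3165566, and no 2 libraries held identical values. All 9 plasma cell markers examined, among them SDC1 and IRF4, were detected in every library of both lines, while markers of T cells, monocytes, erythroid, stromal and epithelial cells stayed at or under 9.65 CPM (counts divided by the library total and scaled alike in all libraries). Over all genes the 3 libraries that stood furthest apart from their partners were each a replicate 2. In the CFZr L363 DMSO group at 24 h it differed from its partners by a chi-square of 36.4 and 34.9 per gene, against 2.31 between those partners. In the AMO1 CFZ group at 24 h these values were 25.2 and 30.4 against 3.64, and in the CFZr L363 NCP26 group at 6 h they were 12 and 19.6 against 2.58. Next came replicate 1 of the AMO1 NCP26 group at 6 h, at 8.43 and 7.91 against 3.48. It had counts for 15581 genes, where its partners had 13577 and 13636. Changes were tested with the quasi-likelihood test of edgeR, and p-values were adjusted by the Benjamini-Hochberg method over all genes tested in the comparison, and a gene was called at an adjusted p under 0.05. Log2 fold changes come from that fit with its own TMM scaling. The CPM values given beside them were scaled by TMM over all 66 libraries, so the 2 can differ slightly. As counts are scaled within each library, the values are shares of the mRNA of the whole culture. A change in cell number or in total mRNA per cell cannot be read from them.

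In untreated cells TUBA1B and TUBB dominated. Per kilobase of transcript, AMO1 cells with DMSO for 6 h had TUBA1B at 1450 ± 71.9 CPM per kb (SD, n = 3), followed by TUBB at 655 ± 37.9 and TUBB4B at 177 ± 4.25. TUBA1C (95.9 ± 6.45) and TUBA4A (87.8 ± 5.68) came next and overlapped between replicates. TUBA1A stood at 60.9 ± 4.86, TUBB3 at 13.7 ± 0.428, TUBB6 at 7.09 ± 2.05, TUBB2A at 2.64 ± 0.536 and TUBB2B at 1.02 ± 0.574, each apart from its neighbour. The order in CFZr L363 cells with DMSO for 6 h was the same down to TUBB3 with lower leaders, TUBA1B at 683 ± 38.1 CPM per kb and TUBB at 482 ± 25, and TUBB6 came last at 0.157 ± 0.0370. TUBA1B made up 81.0% of the summed alpha-tubulin CPM in AMO1 cells with DMSO at 6 h, and TUBB made up 83.8% of the beta-tubulin sum.

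NCP26 lowered most tubulin mRNAs in AMO1 cells at 6 h, the abundant ones included. TUBA1B read 2420, 2435 and 2225 CPM in the 3 DMSO replicates and 1022, 884 and 923 CPM with NCP26, a log2 fold change of -1.32 (SE 0.10, adjusted p = 2.44e-06). TUBB read 1721, 1683 and 1540 CPM against 658, 595 and 607 CPM, a log2 fold change of -1.40 (SE 0.10, adjusted p = 1.13e-06). TUBB4B went from 277, 282 and 269 CPM to 99.5, 90.1 and 92.4 CPM, a log2 fold change of -1.55 (SE 0.10, adjusted p = 3.56e-07). In all 3 genes every treated replicate lay below every DMSO replicate. TUBA1C (-1.26, SE 0.12) and TUBA4A (-1.25, SE 0.10) fell by similar amounts on the log2 scale. TUBA1A fell least among the called members, from 105, 107 and 92.5 CPM to 85.0, 72.2 and 74.8 CPM (log2 fold change -0.39, SE 0.11, adjusted p = 0.0135), and the call was lost without DMSO replicate 1, DMSO replicate 2 or NCP26 replicate 2. TUBB6 read 12.6, 17.5 and 9.92 CPM in DMSO and 3.13, 3.09 and 1.95 CPM with NCP26 (log2 fold change -2.27, SE 0.32), TUBB3 changed by -1.37 (SE 0.19), and TUBB2A at -0.18 (SE 0.38) was not called. Of 9 members tested, 8 were lower and 0 higher, where 37.3% of all tested genes were called and 19.2% were called lower. The median log2 fold change was -1.32 over the tested members and -0.01 over all tested genes.

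Low counts put a condition on such totals. A member that passes the filter only through the group in which it is high is picked by that difference, so its call is not counted as support. Among the called members with NCP26 or HFG against DMSO in AMO1 cells, this applied to TUBB6 at both times and TUBB2B at 24 h. Each passed through its DMSO libraries. With NCP26 and HFG at 24 h it applied to TUBB3 too, which had 0 counts in NCP26 replicate 3 and 5 in HFG replicate 1. TUBA1A, TUBA1B, TUBA1C, TUBA4A, TUBB and TUBB4B had at least 76 counts in every one of the 66 libraries. With NCP26 in AMO1 cells, 6 of these 6 were called lower at 6 h and 5 of the 6 at 24 h.

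By 24 h the decrease of TUBA1B in AMO1 cells had deepened. Its level was 1320, 1426 and 1531 CPM in DMSO and 320, 344 and 316 CPM with NCP26, a log2 fold change of -2.13 (SE 0.05, adjusted p = 1.79e-25), the 47th lowest of 10787 tested genes. TUBB read 1238, 1198 and 1303 CPM against 389, 384 and 384 CPM (log2 fold change -1.70, SE 0.04, adjusted p = 1.65e-24), the 153rd lowest. Neither pair of groups overlapped. TUBA1C (-1.51, SE 0.07), TUBB4B (-1.41, SE 0.07), TUBA4A (-1.13, SE 0.07) and TUBB6 (-1.37, SE 0.27) fell less on the log2 scale. TUBB2B read 8.44, 9.45 and 4.41 CPM in DMSO and 0.626, 2.28 and 2.13 CPM with NCP26 (log2 fold change -2.09, SE 0.40). TUBA1A was not called, with 83.3, 75.1 and 75.0 CPM in DMSO and 71.4, 71.1 and 70.4 CPM with NCP26. Every NCP26 replicate lay below every DMSO replicate, but the log2 fold change of -0.12 had a 95% interval of -0.29 to 0.04 (adjusted p = 0.177). In total 8 of 9 members tested were lower and 0 higher, where 60.7% of all tested genes were called and 30.9% were called lower, and the members' median was -1.51 against 0.01.

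TUBB3 needs its overlapping neighbour to be read. In AMO1 cells at 24 h it had 19.1, 23.4 and 23.1 CPM in DMSO and 6.89, 8.81 and 0 CPM with NCP26, a log2 fold change of -2.10 (SE 0.32, adjusted p = 1.18e-06) that DESeq2's Wald test did not call (adjusted p = 0.187). The library listed at 0 had 39 counts, or 11.8 CPM, on ENSG00000198211 instead. Summing both genes gave log2 ratios to DMSO of -1.34 at 6 h and -1.25 at 24 h with NCP26, and of -1.11 and -1.49 with HFG. Summed per library, the genes read 6.89 to 11.8 CPM with NCP26 at 24 h and 19.1 to 24.3 CPM in DMSO.

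**Figure D2:**
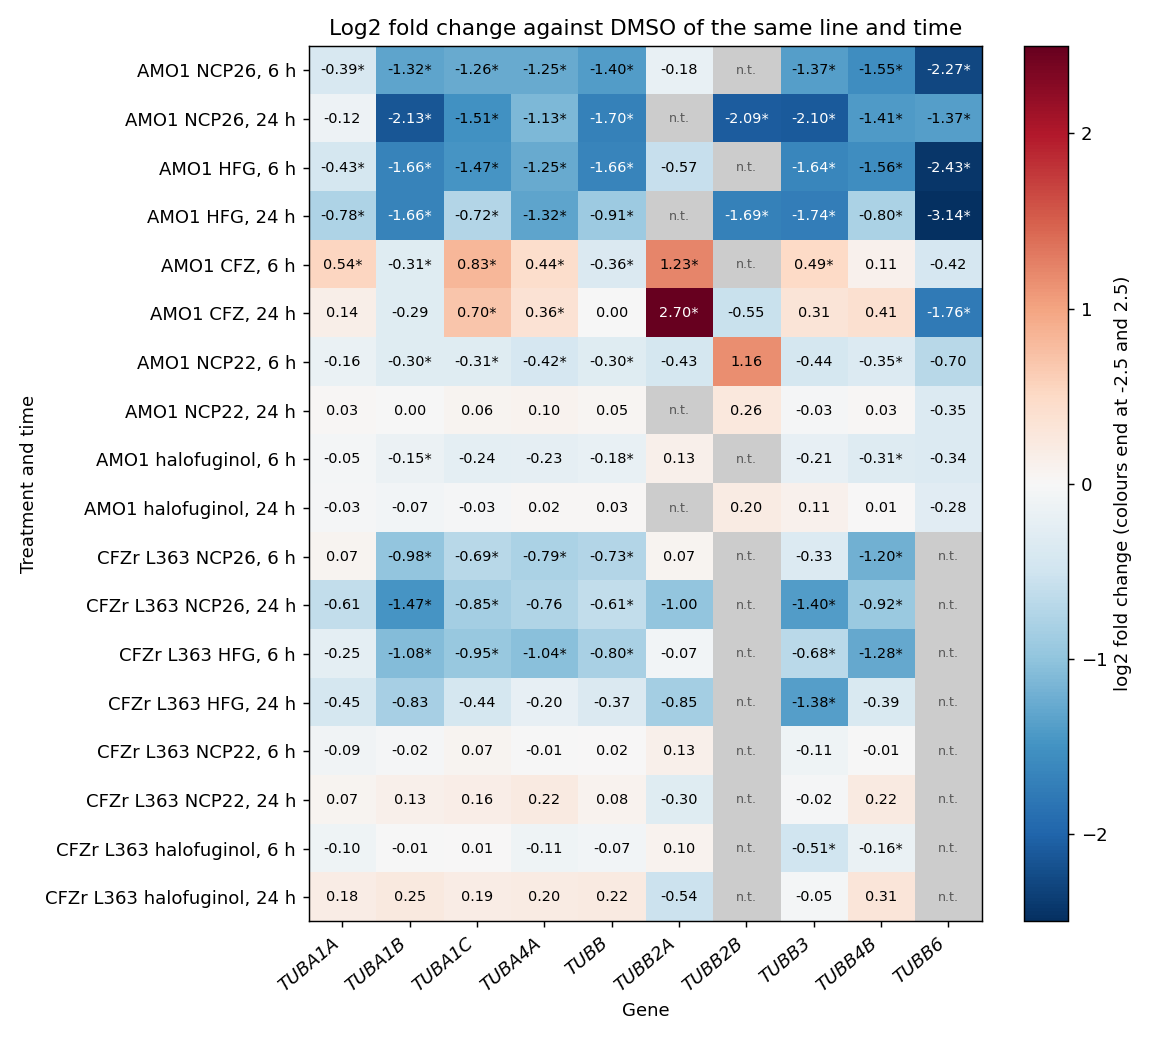
Log2 fold changes of the 10 members (columns) in the 18 comparisons of a treatment with DMSO of its line and time (lines of cells), from edgeR fits of 3 replicates against 3. An asterisk marks an adjusted p under 0.05 and n.t. a member that did not pass the filter on low counts. NCP26 and HFG give negative values for nearly all members in both lines, down to -3.14 for TUBB6 with HFG at 24 h in AMO1 cells, and CFZ gives positive values for TUBA1C. With HFG at 24 h TUBB6 passed the filter only through its DMSO libraries.

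HFG also lowered most members at 6 h, against the same DMSO libraries. TUBA1B read 691, 757 and 733 CPM with HFG (log2 fold change -1.66, SE 0.06, adjusted p = 2.18e-12), and TUBB read 489, 529 and 510 CPM (-1.66, SE 0.06, adjusted p = 4.42e-12), all below the DMSO replicates. In AMO1 cells at that time 8 of 9 members tested were lower and 0 higher (54.3% of all tested genes called, 27.7% higher and 26.6% lower), with TUBA1C at -1.47 (SE 0.08), TUBB4B at -1.56 (SE 0.08), TUBA4A at -1.25 (SE 0.09), TUBB3 at -1.64 (SE 0.20), TUBB6 at -2.43 (SE 0.31) and TUBA1A at -0.43 (SE 0.10). TUBB2A, at -0.57 (SE 0.37), was not called.

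At 24 h all 9 members tested were lower with HFG in AMO1 cells, where 59.0% of all tested genes were called, 28.5% higher and 30.5% lower, and the decrease of several genes was smaller than at 6 h. TUBB read 650, 649 and 688 CPM, above its 6 h values with HFG and at a log2 fold change of -0.91 (SE 0.04) from DMSO of its own time. TUBA1C was at -0.72 (SE 0.07) and TUBB4B at -0.80 (SE 0.08). TUBA1B, at 449, 430 and 475 CPM, remained at -1.66 (SE 0.05). The change of effect between 6 h and 24 h was tested as an interaction: it was 0.78 for TUBB (SE 0.07, adjusted p = 1.01e-07), 0.78 for TUBA1C and 0.79 for TUBB4B, and 0.03 for TUBA1B with an interval of -0.13 to 0.20. These 3 of 10 members tested stood against 39.6% of all genes called for the same interaction. TUBA1A fell to 42.8, 42.2 and 49.4 CPM (log2 fold change -0.78, SE 0.10), and its interaction of -0.31 was not called (adjusted p = 0.0937). TUBB6 was nearly lost with HFG, at 0.563, 1.24 and 1.33 CPM or 1, 3 and 4 counts, against 9.90, 9.92 and 10.2 CPM in DMSO (log2 fold change -3.14, SE 0.36).

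For NCP26 the interaction with time was -0.82 for TUBA1B (SE 0.11, adjusted p = 6.40e-05) and -0.30 for TUBB (SE 0.10, adjusted p = 0.0469), 2 of 10 members tested where 17.5% of all genes were called, a share close to that of the members. The call on TUBB was lost without any one of 9 of the 12 libraries, all but the NCP26 replicates at 6 h, and in 13 of 19 alternatives in all. The count of members was 1 without DMSO replicate 1 or 2 of either time or any NCP26 replicate of 24 h. In AMO1 cells the 24 h DMSO libraries and most treated 24 h libraries came from different sets of sample numbers. With a term for the set, in an edgeR fit pooling all AMO1 libraries, TUBA1B was at -2.11 and TUBB at -1.66 with NCP26 at 24 h. TUBB6 (-0.45, adjusted p = 0.674) and TUBB2B (-1.22, adjusted p = 0.240) were not called. With HFG, TUBB2B (-0.82, adjusted p = 0.429) was not called either. In AMO1 cells only the CFZ group of 24 h spans sets, replicate 1 against 2 and 3, and its replicate 2 stood apart. The term rests on these libraries and can hardly test the set difference.

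**Figure D3:**
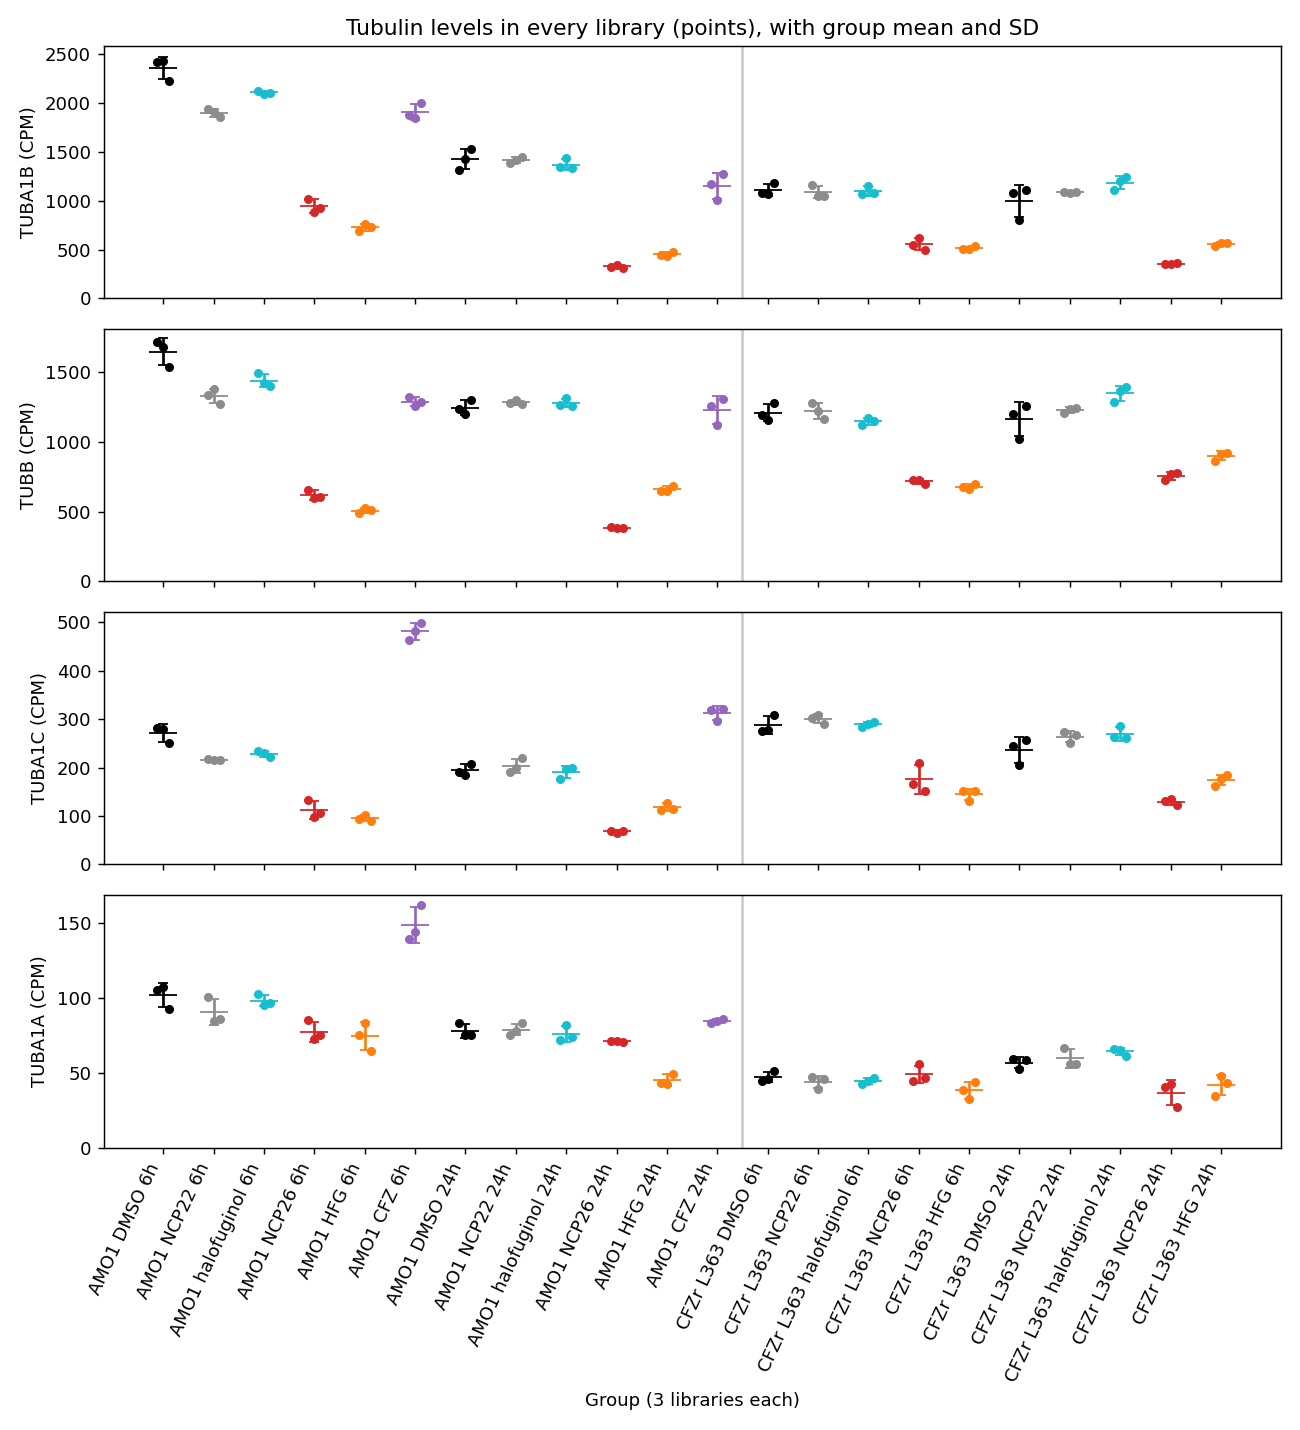
Levels in CPM of TUBA1B, TUBB, TUBA1C and TUBA1A in the 22 groups, with 1 point per replicate and a bar for the mean ± SD of 3 replicates. TUBA1B with NCP26 at 24 h in AMO1 cells is the lowest of its panel at 316 to 344 CPM, and TUBA1C and TUBA1A have their highest values with CFZ at 6 h in AMO1 cells.

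Over all 22 groups, TUBA1B was highest in AMO1 cells with DMSO for 6 h and lowest with NCP26 for 24 h. The 8 groups treated with NCP26 or HFG held the 8 lowest means of TUBA1B and of TUBB. For TUBA1B the highest of these groups, AMO1 with NCP26 for 6 h, overlapped the next group, CFZr L363 with DMSO for 24 h, through its replicate 2 at 808 CPM. For TUBB the 8 groups lay apart from the rest, with 863 to 925 CPM in the highest of them, CFZr L363 with HFG for 24 h, and 1124 to 1174 CPM in the group above, CFZr L363 with halofuginol for 6 h. TUBA1A had no such order across times, since AMO1 cells with NCP26 for 6 h overlapped AMO1 cells with DMSO or halofuginol for 24 h, while NCP26 and DMSO of the same time did not overlap in AMO1 cells.

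CFZ, which blocks the proteasome, moved the isotypes in opposite directions in AMO1 cells. TUBA1C rose from 283, 280 and 250 CPM in DMSO to 464, 482 and 500 CPM at 6 h, a log2 fold change of 0.83 (SE 0.07, adjusted p = 4.30e-09). TUBA1A rose from 105, 107 and 92.5 CPM to 139, 144 and 162 CPM (0.54, SE 0.09). TUBB fell from 1721, 1683 and 1540 CPM to 1326, 1262 and 1284 CPM (log2 fold change -0.36, SE 0.05, adjusted p = 2.90e-05). TUBA1B fell as well, to 1882, 1845 and 2004 CPM (-0.31, SE 0.05), and none of these 4 pairs of groups overlapped. TUBA4A (0.44, SE 0.07), TUBB3 (0.49, SE 0.14) and TUBB2A (1.23, SE 0.27) rose too. The call on TUBB3 was lost without CFZ replicate 1, with DESeq2's Wald test and with all groups in one fit, and that on TUBB2A in the last of these. The 7 calls among 9 members tested comprised 5 higher and 2 lower, where 26.9% of all tested genes were called, 14.1% higher and 12.8% lower. TUBA1A, TUBA1B and TUBA1C share reads, and the part of read assignment in their opposite changes was not tested. The summed alpha-tubulin CPM of 2785 ± 117 with CFZ had a log2 ratio of -0.06 to the 2912 ± 152 in DMSO.

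With CFZ for 24 h, TUBA1C stayed higher at 319, 296 and 322 CPM against 191, 185 and 208 CPM (log2 fold change 0.70, SE 0.10, adjusted p = 0.00191). TUBA4A was higher at 0.36 (SE 0.11, adjusted p = 0.0374), a call lost in 8 of 13 alternatives, among them leaving out any one library other than CFZ replicate 2. TUBB2A read 8.41, 4.42 and 8.17 CPM with CFZ and 0, 0.472 and 2.21 CPM in DMSO (2.70, SE 0.63). It passed the filter only through the CFZ group, so its call is not counted as support. TUBB6 was lower, at 4.20, 2.41 and 1.95 CPM against 9.90, 9.92 and 10.2 CPM (-1.76, SE 0.30, adjusted p = 0.00346), and passed through the DMSO group. In this comparison 3 of 10 members were higher and 1 lower, where 27% of all tested genes were called, 13.1% higher and 14% lower. Without DMSO replicate 2 the members called fell to 2, losing TUBA4A and TUBB2A, and without CFZ replicate 2, which stood apart from its partners, they were 6. TUBB was at 0.00 with an interval of -0.27 to 0.26.

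In CFZr L363 cells NCP26 also lowered the abundant tubulins at 6 h. TUBA1B read 1083, 1069 and 1183 CPM in DMSO and 544, 621 and 500 CPM with NCP26 (log2 fold change -0.98, SE 0.11, adjusted p = 0.000255). TUBB read 1194, 1159 and 1281 CPM against 729, 728 and 698 CPM (-0.73, SE 0.10, adjusted p = 0.000736), and TUBB4B 365, 326 and 385 CPM against 158, 158 and 145 CPM (-1.20, SE 0.10, adjusted p = 2.71e-05). None of the 3 overlapped. TUBA1C (-0.69, SE 0.12) and TUBA4A (-0.79, SE 0.14) were lower as well, which made 5 of 8 members tested lower and 0 higher, where 18.8% of all tested genes were called, 9.81% higher and 8.99% lower. Without NCP26 replicate 2, which stood apart, the count was 6, with TUBA1B at -1.06. TUBA1A at 0.07 (interval -0.21 to 0.34) and TUBB3 at -0.33 (SE 0.16) were not called. TUBB6 was at most 1.56 CPM in any CFZr L363 library and was not tested there.

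HFG for 6 h gave CFZr L363 cells 505, 504 and 534 CPM of TUBA1B (log2 fold change -1.08, SE 0.05, adjusted p = 4.04e-14) and 677, 662 and 698 CPM of TUBB (-0.80, SE 0.05). TUBB4B fell to 140, 151 and 143 CPM, a log2 fold change of -1.28 (SE 0.07) and the largest decrease among the members in that comparison. TUBA1C (-0.95), TUBA4A (-1.04) and TUBB3 (-0.68, not called with a GC offset or a set term) brought the count to 6 of 8 members lower and 0 higher, where 54.5% of all tested genes were called and 27.5% were called lower. All HFG and halofuginol libraries of this line at 6 h came from another set of sample numbers than its DMSO libraries. With a term for the set 2180 of 11100 genes were called with HFG and 81 with halofuginol. That fit also pooled all libraries of the line, so these counts mix the pooling with the term. The other 5 members stayed called with HFG, TUBA1B at -1.24 (SE 0.17) and TUBB at -0.91 (SE 0.13). In this line only the NCP22 group of 6 h spans sets, replicate 3 against 1 and 2. The term rests on these libraries and can hardly test the set difference.

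At 24 h the CFZr L363 comparisons turned on DMSO replicate 2, which stood apart. TUBA1B read 1079, 808 and 1106 CPM in DMSO, with the low value in replicate 2, and 351, 357 and 362.7 CPM with NCP26, so that the groups did not overlap (log2 fold change -1.47, SE 0.17, adjusted p = 0.00352). NCP26 lowered 5 of 8 members tested, where 7.09% of all tested genes were called and 4.38% were called lower: TUBA1B, TUBB3 (-1.40, SE 0.17), TUBB4B (-0.92, SE 0.16), TUBA1C (-0.85, SE 0.14) and TUBB (-0.61, SE 0.15, adjusted p = 0.0493). Without DMSO replicate 2 the count was 8, with TUBA1B at -1.60 (SE 0.06), TUBB at -0.69 (SE 0.06) and TUBA1A at -0.66 (SE 0.15). Without any one of the other 5 libraries it was 1 or 2, and with the replicate number as a block it was 2. For HFG at 24 h 1 of 8 members was called, TUBB3 at -1.38 (SE 0.19, adjusted p = 0.0194), where 1.17% of all tested genes were called, 0.592% higher and 0.573% lower. TUBA1B read 538, 570 and 569 CPM, below every DMSO replicate, at -0.83 (SE 0.15, adjusted p = 0.0551). Without DMSO replicate 2 the HFG count was 7 and TUBA1B was at -0.96 (SE 0.05, adjusted p = 1.07e-13), without any one of the other 5 libraries it was 0, and with the replicate block 0.

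The difference in response between the lines was tested directly. For NCP26 at 6 h the effect on TUBB was 0.65 weaker on the log2 scale in CFZr L363 than in AMO1 cells (SE 0.13, adjusted p = 0.0106), and that on TUBB3 1.02 weaker (SE 0.25, adjusted p = 0.0371), 2 of 9 members tested where 2.71% of all genes were called. TUBB3 lost its call without any one of 7 of the 12 libraries, among them all 3 AMO1 DMSO replicates. For TUBA1B the difference was 0.32 (interval 0.00 to 0.63, adjusted p = 0.2996). At 24 h the effect of NCP26 was weaker in CFZr L363 cells for TUBB, by 1.06 (SE 0.14, adjusted p = 0.00191), and for TUBA1C, by 0.63 (SE 0.15, adjusted p = 0.0274), 2 of 10 members where 5.41% of all genes were called. Without CFZr L363 DMSO replicate 2 the count was 5, and it was 1 without any one of 8 other libraries, where TUBA1C lost its call. For HFG at 24 h 4 of 10 members differed where 16.9% of all genes were called (6 without CFZr L363 DMSO replicate 2): TUBA1B by 0.82 (SE 0.16, adjusted p = 0.00454), TUBA4A by 1.11 (SE 0.21), TUBB by 0.54 (SE 0.13) and TUBB6 by 3.37 (SE 1.05, adjusted p = 0.0437). TUBB6 was close to 0 counts in CFZr L363 cells in either group, so its value rests on the AMO1 libraries, and its call was lost without any one of 10 of the 12 libraries. It passed the filter only through the AMO1 DMSO libraries, so its call is not counted as support. Of the 6 well-counted members 3 differed for HFG at 24 h. In both 24 h tests the AMO1 treated and DMSO libraries came from different sets of sample numbers. With a set term in edgeR, fitted on all libraries of both lines, TUBA1C lost its NCP26 call (adjusted p = 0.0585) and TUBB6 its HFG call (adjusted p = 0.234). TUBA1B gained a call for NCP26 (adjusted p = 0.0253). The DMSO libraries of the lines also differed, but they came from different sets of sample numbers, so line and set cannot be told apart. At 6 h CFZr L363 cells had less TUBA1B (-1.11, SE 0.06), TUBA1A (-1.13, SE 0.10) and TUBB (-0.46, SE 0.06) than AMO1 cells and more TUBB4B (0.36, SE 0.07), among 6 of 9 members called where 60.2% of all tested genes were called. These include TUBB6, which passed the filter only through AMO1 cells. Of the 6 well-counted members 4 were lower and 1 higher at 6 h, and 2 were lower at 24 h. At 24 h 6 of 10 members were called where 39.9% of all genes were. The count was 3 without AMO1 DMSO replicate 1 or replicate 2 and 8 without CFZr L363 DMSO replicate 2. Among the 6, TUBB2A passed the filter only through CFZr L363 cells, and TUBB2B and TUBB6 only through AMO1 cells. Their calls are not counted as support.

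NCP22, which is related to NCP26, changed the members by at most 0.42 on the log2 scale where they were called. AMO1 cells with NCP22 for 6 h read 1942, 1906 and 1859 CPM of TUBA1B (log2 fold change to DMSO -0.30, SE 0.05, adjusted p = 0.00109) and 1337, 1378 and 1276 CPM of TUBB (-0.30, SE 0.06). The 5 members called lower of 10 tested, with TUBA4A at -0.42, TUBB4B at -0.35 and TUBA1C at -0.31, stood against 13.5% of all tested genes called, 7.42% higher and 6.08% lower. In this comparison the log2 fold changes correlated with transcript GC content at -0.51 across genes, and with a GC offset TUBB4B was not called. At 24 h 0 of 9 members were called by edgeR or by DESeq2's Wald test and 0% of all genes by edgeR, while 638 of 10781 genes had an unadjusted p under 0.05, and the 95% interval of TUBA1B was -0.15 to 0.14. CFZr L363 cells had 0 of 8 members called at either time by edgeR or DESeq2, with 0% of all genes called by edgeR and an unadjusted p under 0.05 for 666 (6 h, 10235 tested) and 213 (24 h, 10727 tested).

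Compared directly in AMO1 cells, NCP26 gave less TUBA1B than NCP22 by -0.99 at 6 h (SE 0.09) and by -2.10 at 24 h (SE 0.06), and less TUBB by -1.08 and -1.72. At 6 h 8 of 10 members differed where 24.7% of all genes did, and at 24 h 8 of 9 where 52.0% did. These counts include TUBB2B and TUBB6, and at 24 h TUBB3, which passed the filter only through the NCP22 libraries, so their calls are not counted as support. Of the 6 well-counted members 5 were lower with NCP26 at either time. TUBA1A was not called at either time, at -0.20 (interval -0.43 to 0.02) and -0.13 (interval -0.31 to 0.04). In CFZr L363 cells 5 of 8 members differed between NCP26 and NCP22 at 6 h (20.4% of all genes) and 7 of 8 at 24 h (34.1%), with TUBA1B at -0.97 and -1.60. These 24 h comparisons do not use the DMSO library that stood apart.

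Halofuginol gave few calls. In AMO1 cells at 6 h TUBA1B read 2128, 2096 and 2101 CPM (log2 fold change -0.15, SE 0.04, adjusted p = 0.0482), TUBB changed by -0.18 and TUBB4B by -0.31, the 3 of 9 members called where 3.62% of all genes were, 2.60% higher and 1.02% lower. Leaving out single libraries gave 0 called without DMSO replicate 2, halofuginol replicate 1 or halofuginol replicate 2, 1 without DMSO replicate 1 or halofuginol replicate 3, and 5 without DMSO replicate 3, and a GC offset gave 0. The fold changes of this comparison correlated with GC content at -0.47 across genes. At 24 h 0 of 9 members were called by edgeR or DESeq2, where 0.183% of all genes were called, 0.0731% higher and 0.110% lower, and 1129 of 10943 had an unadjusted p under 0.05. In CFZr L363 cells at 6 h TUBB3 (-0.51) and TUBB4B (-0.16) were called of 8, where 25.8% of all genes were, 13.6% higher and 12.2% lower, in a comparison whose fold changes correlated with GC content at -0.72 across genes. Neither was called with all groups of the line in one fit, with or without a set term. Neither was called with a GC offset, under which TUBB4B turned to 0.05. Without halofuginol replicate 2 or DMSO replicate 3 the count was 0, and it was 1 without halofuginol replicate 1, halofuginol replicate 3 or DMSO replicate 1. At 24 h 0 of 8 were called by either tool, with 0% of all genes called by edgeR and an unadjusted p under 0.05 for 410 of 10531.

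Set against halofuginol at the same dose and time, HFG lowered TUBA1B in AMO1 cells by -1.51 at 6 h (SE 0.04) and -1.58 at 24 h (SE 0.06), and TUBB by -1.48 and -0.93. Of the members tested, 8 of 9 differed at 6 h (51.7% of all genes) and 9 of 9 at 24 h (56.6%). CFZr L363 cells had 5 of 8 differing at 6 h (47.3%) and 7 of 7 at 24 h (21.9%), with TUBA1B at -1.06 and -1.09 and TUBB3 at -0.18 (interval -0.48 to 0.13) and -1.33. In AMO1 cells TUBB6 at both times (-2.85, SE 0.39 at 24 h) passed the filter only through the halofuginol libraries, so its calls are not counted as support. The same held for TUBB2B and TUBB3 at 24 h. Of the 6 well-counted members 6 were lower in AMO1 cells at either time.

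NCP26 and HFG, which differ in structure and in binding site, were compared with each other as well, which made 12 comparisons of compound pairs. At 6 h in AMO1 cells 0 of 8 members differed by edgeR, where 0.260% of all genes were called and 1416 of 10749 had an unadjusted p under 0.05, and DESeq2's Wald test called 1. TUBA1B was 0.37 higher with NCP26 (interval 0.16 to 0.58, adjusted p = 0.142), with all NCP26 replicates above all HFG replicates, and TUBB4B differed by 0.03 (interval -0.17 to 0.23). Without NCP26 replicate 1 the count was 1. At 24 h 5 of 7 members differed where 44.9% of all genes did. TUBB (-0.79, SE 0.04, adjusted p = 4.54e-11), TUBA1C (-0.80, SE 0.08), TUBB4B (-0.62, SE 0.08) and TUBA1B (-0.48, SE 0.05) were lower with NCP26, and TUBA1A was higher (0.64, SE 0.09, adjusted p = 2.34e-05). TUBA4A differed by 0.18 (interval -0.01 to 0.37). In CFZr L363 cells 0 of 8 members differed at 6 h by edgeR or DESeq2, and the interval of TUBA1B was -0.13 to 0.33. By edgeR 0% of all genes were called, and 1188 of 10688 had an unadjusted p under 0.05. These NCP26 and HFG libraries came from different sets of sample numbers, so compound and set cannot be told apart. The log2 fold changes correlated with GC content at 0.51 across genes. At 24 h 5 of 7 were lower with NCP26, where 12.9% of all genes differed, from -0.64 for TUBA1B to -0.24 for TUBB.

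Summed over the family, alpha- and beta-tubulin mRNA, whose proteins enter each dimer in equal number, were both lower with NCP26 and HFG in both lines, and these ratios carry no test. AMO1 cells had 1864 ± 118 CPM of alpha-tubulin with DMSO at 24 h and 542 ± 8.21 CPM with NCP26, a log2 ratio of -1.78, and the beta-tubulin ratio was -1.65. With HFG the ratios were -1.58 and -1.68 at 6 h but -1.45 and -0.91 at 24 h. CFZr L363 cells had -0.88 and -0.83 with NCP26 at 6 h, and -1.24 and -0.69 at 24 h. The share of TUBA1B in the alpha sum was 60.3% with NCP26 at 24 h in AMO1 cells, against 76.5% in DMSO.

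Counted over the 8 comparisons of NCP26 or HFG with DMSO, TUBA1B, TUBA1C, TUBB, TUBB3 and TUBB4B were called lower in 7, the exception being HFG at 24 h in CFZr L363 cells for 4 of them and NCP26 at 6 h in those cells for TUBB3. TUBA4A was called in 6, TUBA1A in 3 and TUBB2A in 0 of the 6 in which it was tested. TUBB6 and TUBB2B were tested in 4 and 2, in which they passed the filter only through DMSO, so their calls are not counted. The 7 calls of TUBB3 include those at 24 h in AMO1 cells, where it also passed only through DMSO, so those calls are not support. In CFZr L363 cells several calls were fragile. With NCP26 at 24 h that on TUBB was lost in 8 of 12 alternatives and those on TUBA1C and TUBB4B in 6 of 12 each. The TUBB3 call was lost in 6 of 12 with HFG at 24 h and in 2 of 13 with HFG at 6 h. The 8 comparisons share DMSO libraries within a line and time. The share of all tested genes called lower ran from 0.573% with HFG at 24 h in CFZr L363 cells to 30.9% with NCP26 at 24 h in AMO1 cells. With HFG at 6 h in CFZr L363 cells, and at 24 h in AMO1 cells, treated and DMSO libraries came from different sets of sample numbers. Across genes, the log2 fold changes at 6 h correlated with transcript GC content at -0.37 with NCP26 in either line. With HFG the correlation was -0.32 in AMO1 and -0.57 in CFZr L363 cells. With a GC offset TUBA1B, TUBA1C, TUBA4A, TUBB and TUBB4B kept these 6 h calls.

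The genes around tubulin were read from lists written by role. In AMO1 cells with NCP26 the 12 genes of the decay pathway held 1 higher and 0 lower at 6 h (median log2 fold change 0.19). Of all tested genes 18.1% were higher and 19.2% lower. At 24 h 2 were higher and 6 lower (median -0.16), where 29.8% and 30.9% of all genes were. With HFG at 6 h 6 were higher and 0 lower, where 27.7% of all genes were higher. TTC5, the reader of the nascent chain, rose at 24 h with NCP26 (0.48, SE 0.17, adjusted p = 0.0172) and with HFG (0.45, SE 0.18, adjusted p = 0.0381), as did the CCR4-NOT subunit CNOT11 (0.33 and 0.29). CNOT2 (-0.42 and -0.63) and the deadenylase CNOT6L (-0.38 and -0.78) fell with both. Of the 12, 0 were called by edgeR in CFZr L363 cells with NCP26 for 6 h, where 18.8% of all genes were, and with HFG for 6 h 5 were higher and 1 lower, where 26.9% of all genes were higher and 27.5% lower.

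Members of the chaperonin CCT, the ring that folds actin and tubulin, were lower with NCP26 and HFG in AMO1 cells. With NCP26 6 of 8 were lower and 0 higher at 6 h (median -0.42), where 19.2% of all genes were lower, and 8 of 8 at 24 h (median -0.61), where 30.9% were, CCT8 at -0.69 (SE 0.05) and CCT3 at -0.62 (SE 0.05). With HFG at 24 h 7 were lower and 1 higher, where 30.5% and 28.5% of all genes were. With CFZ at 6 h, 7 of 8 were higher and 0 lower (median 0.30), where 14.1% of all genes were higher. At 24 h 0 of 8 were called by edgeR, where 27% of all genes were. In CFZr L363 cells with NCP26 0 of 8 were called at 6 h, where 18.8% of all genes were, and 0 of 8 at 24 h, where 7.09% were (medians -0.08 and -0.07). The 24 h comparison includes the CFZr L363 DMSO replicate 2 that stood apart. With HFG at 6 h 3 of 8 were lower there, where 27.5% of all genes were. Among 11 genes of prefoldin and the tubulin cofactors, 0 rose and 3 fell at 6 h with NCP26 in AMO1 cells. Of all genes 18.1% were higher and 19.2% lower. At 24 h 6 rose and 2 fell, where 29.8% and 30.9% of all genes did. The prefoldin subunits VBP1 at 0.71 (SE 0.08) and PFDN2 at 0.68 (SE 0.08) were higher at 24 h, and PFDN5 at -0.48 (SE 0.05) and cofactor TBCD at -0.58 (SE 0.10) lower.

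Microtubule nucleation and regulation genes went both ways. Of 10 gamma-tubulin complex genes, 2 rose and 5 fell with NCP26 at 24 h in AMO1 cells, NEDD1 at 0.41 and MZT2A at -0.52 among them. Of 15 regulators 7 rose and 6 fell, with the plus-end proteins MAPRE3 (0.95, SE 0.20) and CLIP1 (0.88, SE 0.10) higher, and the depolymerising kinesin KIF2C (-1.12, SE 0.10) and stathmin STMN1 (-0.82, SE 0.07), which binds free dimers, lower. HFG at 24 h gave the same signs for these 4 genes, all called. Of 12 modification genes tested, 2 rose and 4 fell, with TTLL1, a polyglutamylase subunit, at 0.89 (SE 0.31), the deacetylase SIRT2 at 0.33, the carboxypeptidase AGBL5 at -0.45 and TTLL12 at -1.21 (SE 0.11). TTLL12 was also lower with HFG at 24 h (-0.96) and in CFZr L363 cells with NCP26 at 6 h (-0.81), and TTLL1 higher in both (1.06 and 1.54). The table held 9 other tubulins, of which 3 were tested. TUBE1, the epsilon-tubulin of centrioles, was higher with NCP26 (0.69 in AMO1 cells at 24 h, 1.57 in CFZr L363 cells at 6 h) and TUBB4A was lower (-0.50 and -0.68). These shares stand beside 29.8% of all tested genes higher and 30.9% lower with NCP26 at 24 h in AMO1 cells.

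**Figure D4:**
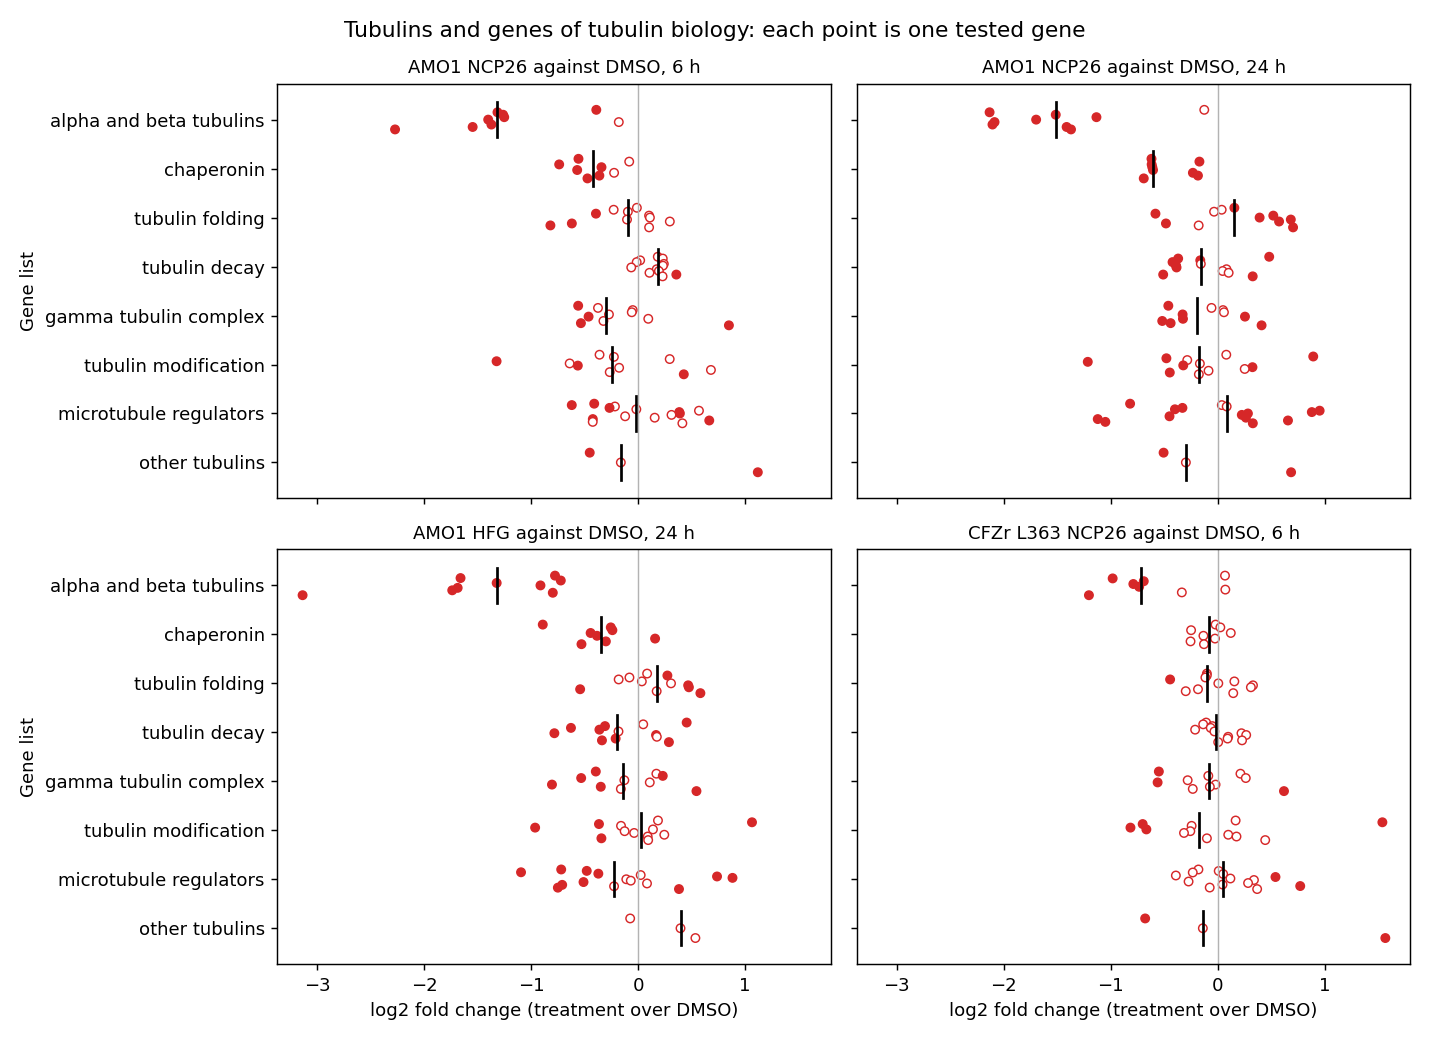
Log2 fold changes of the members and of the 7 lists of related genes in 4 comparisons with DMSO, with 1 dot per tested gene, filled where the adjusted p was under 0.05, and a bar at the median of each list. The members lie lowest, with a median of -1.51 for NCP26 at 24 h in AMO1 cells, the chaperonin genes sit at -0.61 there and at -0.08 in CFZr L363 cells at 6 h, and the other lists spread to both sides of 0.

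The expression patterns most like those of TUBA1B and TUBB were sought among 10827 genes, as the mean of the Pearson correlations of log2 CPM group means over the 12 AMO1 groups and the 10 CFZr L363 groups. For TUBA1B the closest were POLD1 (0.983 and 0.963), IGSF8, CD81, H2AX and MARCKSL1. For TUBB they were VKORC1 (0.968 and 0.961), CRTAP, BRI3BP, METAP1 and TGFB1. TUBA1B and TUBB correlated with each other at 0.918 and 0.928, and TUBB with TUBB4B at 0.954 and 0.959. TUBB2A, a low-count gene, was least like TUBB at 0.315 and 0.206. The group means compared come from the same libraries for every gene.

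Promoter windows around the RefSeq starts were searched on both strands for letters that common factors read. CCAAT was in windows of 7 of the 10 members and in 9 of their 15 windows (60.0%), against 34.6% of all 35116 promoters. GGGCGG was in windows of 8 members (60.0% of windows against 45%), TATAAA in 6.67% of member windows against 11.5% of all promoters, TTTGAA in 26.7% against 15.2%, and GAANNTTC in 20% against 6.77%, the last 2 in windows of 2 members each. The TUBA1C windows chr12:49227676-49227975 and chr12:49227769-49228068 overlap. Each held 1 CCAAT, 1 TTTGAA and 1 GAANNTTC, so the shares of windows can count the same site more than once.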

How the data were processed

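RNA was sequenced from poly(A)-selected directional libraries of 66 samples in 22 groups of 3. The authors deposited 1 table of whole-number counts per gene, which are not normalized, and the submitters' processing notes name kallisto and hg19, while the study's methods name GRCh38. Which kallisto version and strand setting were used, and how gene counts were made, is not given in the sources used. Libraries held 1666325 to 6596543 counts, which limits the precision for genes of few counts. Of 20167 gene identifiers 19299 matched a symbol. The members and the gene lists were chosen with earlier results of these data known.

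Counts were tested with edgeR 4.0.16 in R 4.3.3 (TMM scaling, quasi-likelihood test, filterByExpr at its count minimum of 10 and total minimum of 15, Benjamini-Hochberg adjustment over all tested genes, threshold 0.05). In the main fits each comparison was fitted on its own groups, and each difference of effects on its 4 groups. Standard errors were taken as the size of the log2 fold change over the root of its F statistic. The procedure was tested on simulated data. Alternatives were DESeq2 1.42.0 size factors and its Wald test, no filter, all groups in one fit, the replicate number as a block and leaving out each replicate, and, chosen after seeing the data, a GC offset and a set term, which marks the 3 sets of sample numbers. The set term was used with all groups of the line or lines in one fit, so its values also carry that pooling. Same-numbered replicates were checked for pairing. Sequences, positions and 31-base words came from GENCODE 44 with Biopython 1.88, and promoter windows from RefSeq.

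All 10 members are named. From each list of related genes the text names those with the smallest adjusted p in each direction, at most 2, in AMO1 cells with NCP26 at 24 h. The genes most like TUBA1B and TUBB were the 5 others with the highest mean correlation of log2 CPM with a pseudocount of 1.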

Additional observations from a re-analysis of the deposited data

Results flagged for a closer look

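Effects of the same compound differed between times or lines for 13 member values, each by an interaction term in edgeR's quasi-likelihood test with an adjusted p under 0.05. From 6 h to 24 h in AMO1 cells the effect of NCP26 changed by -0.82 for TUBA1B and -0.30 for TUBB on the log2 scale, and that of HFG by 0.78 for TUBA1C, 0.78 for TUBB and 0.79 for TUBB4B. These were 2 of 10 and 3 of 10 members, where 17.5% and 39.6% of all genes were called, so neither share is a result about the members.

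Between the lines, the effect of NCP26 in CFZr L363 cells minus that in AMO1 cells was 0.65 for TUBB and 1.02 for TUBB3 at 6 h, and 0.63 for TUBA1C and 1.06 for TUBB at 24 h. For HFG at 24 h it was 0.82 for TUBA1B, 1.11 for TUBA4A, 0.54 for TUBB and 3.37 for TUBB6. TUBB6 passed the filter only through the AMO1 DMSO libraries, so its value is not counted as support. The shares of all genes called were 2.71%, 5.41% and 16.9%. The 24 h values between lines include the CFZr L363 DMSO replicate 2 that stood apart from its partners. Their AMO1 treated and DMSO libraries came from different sets of sample numbers.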

How the results depend on the processing

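Counts of members called moved by more than 1.5 times in the following settings, and the cause was not tested. With all groups in one fit, halofuginol at 6 h had 0 in either line, NCP26 and HFG at 24 h in CFZr L363 cells had 8 and 6, NCP26 against HFG at 6 h in AMO1 cells had 2, and the difference of the NCP26 effect between lines at 24 h had 5. With a GC offset halofuginol at 6 h had 0 in either line, and TUBB4B in CFZr L363 cells turned to 0.0511. DESeq2's Wald test gave 2 for HFG at 24 h and 1 for halofuginol at 6 h in CFZr L363 cells, and 1 for NCP26 against HFG at 6 h in AMO1 cells. With no filter that comparison had 1, and the NCP26 difference between lines had 4 at 6 h and 1 at 24 h. With the set term halofuginol at 6 h in CFZr L363 cells had 0, the lines in DMSO at 24 h had 2, and the NCP26 change over time had 1, as it had with DESeq2 size factors.

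Leaving out 1 replicate gave 2 to 6 for CFZ at 24 h, 0 to 5 and 0 to 3 for halofuginol at 6 h in AMO1 and CFZr L363 cells, 1 to 8 for NCP26 and 0 to 7 for HFG at 24 h in CFZr L363 cells, 0 to 1 for NCP26 against HFG at 6 h in AMO1 cells, 3 to 8 for the lines in DMSO at 24 h, 1 to 3 for the NCP26 change over time, and 1 to 3 and 1 to 5 for the NCP26 difference between lines at 6 h and 24 h.

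In 0 of 18 comparisons did all same-numbered replicates deviate together (correlations -0.46 to 0.44). The check gave no sign that the numbers pair the samples, but with few libraries per group it cannot exclude pairing. With the replicate block, NCP26 and HFG at 24 h in CFZr L363 cells had 2 and 0, the NCP26 change over time had 1 and its difference between lines at 6 h had 1.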
